A study of Mus musculus with 6 samples.

Results

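Transcripts of genes of the BMP and TGF-beta pathways were measured in embryonic mouse cortex after conditional deletion of Hdac1 and Hdac2, the genes of 2 histone deacetylases that act as catalytic subunits of corepressor complexes. The genes are a list of 43 symbols grouped by role into ligands, latency proteins, receptors, Smads, inhibitors, corepressors, targets and antagonists. Of these 43, 32 have a row among the 12041 symbols of the processed table, each taken as its row with the highest mean normalized count, and 25 reached the level at which a gene was tested (at least 1 FPKM, a fragment level scaled to transcript length and sequencing depth, in at least 3 libraries). The tissue was cortex of C57BL/6 embryos at embryonic day 12.5. A conditional double knockout, labelled Hdac1&2 cKO, has 3 libraries, named HM-5, HM-13 and HM-16. It is set against wild type (WT), with HC-1, HC-8 and HC-10. The labels name no treatment, no further allele and no driver of the recombinase. Nor do they say whether each library is a different embryo or litter, so the spread behind every p-value may be partly technical.

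BMPs and TGF-betas are secreted dimers that assemble type I and type II serine/threonine kinase receptors. The activated type I receptor phosphorylates receptor Smads (Smad1 and Smad5 for BMPs, Smad2 and Smad3 for TGF-betas and activins), which enter the nucleus with Smad4 and change transcription, with Id and Msx genes among the best known BMP targets. In the embryonic forebrain, BMPs are made at the dorsal midline, in the cortical hem and the choroid plexus, where they pattern the medial cortex. Id proteins are helix-loop-helix proteins without a DNA-binding region, which bind proneural partners and hold progenitors back from differentiation.

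Transcripts of both targeted genes were low in every cKO library. Hdac1 had 45.5, 61.0 and 47.4 FPKM in cKO (HM-5, HM-13, HM-16), against 212, 197 and 193 FPKM in WT (HC-1, HC-8, HC-10). Hdac2 had 37.6, 61.7 and 47.5 FPKM in cKO, against 134, 216 and 272 FPKM in WT. The libraries hold 9712556 to 11922665 reads in the rows of the table, and the ribosomal RNA row Rn45s took 29.7% of the reads of HM-13, against at most 2.48% in the others. A WT library stood apart in markers of the dorsal midline. Over the 8 of 9 hem and choroid plexus markers that have a row, the summed level was 181.9 to 221 FPKM in the cKO libraries, 301 and 356 FPKM in HC-1 and HC-8, and 40.6 FPKM in HC-10. The choroid plexus gene Ttr had 27.1 to 68.4 FPKM in cKO, 118 and 145 FPKM in HC-1 and HC-8, and 0.0769 FPKM in HC-10. Values without HC-10 are given beside the genes it moves most. Cortical identity was present in all 6 libraries: Emx1, a transcription factor of the cortical primordium, had 147 to 179 FPKM in cKO and 166 to 201 FPKM in WT.

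Of the 25 pathway genes tested, 2 fell in cKO, the target genes Id2 and Id4, and 0 rose. That is 8% of them, against 18% of all 9359 genes that passed the same test (limma on log2(FPKM + 1), Benjamini-Hochberg adjusted p under 0.05), of which 9.62% were higher and 8.39% lower. An unadjusted p under 0.05 was seen for 7 of the 25 genes, against 34.3% of all tested genes. Without HC-10, 3 genes fell (Id2, Id3 and Id4) in a fit that called 9.64% of all genes, and without HC-10 and HM-13 together, 2 fell (Id2 and Id3) where 12.5% were called. The cKO and WT values did not overlap for 10 of the 25 (40.0%), close to the 39.1% of all tested genes. The median log2 fold change of the 25 genes was 0.12, against -0.01 over all tested genes, and 15 were above 0 and 10 below.

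**Figure D1:**
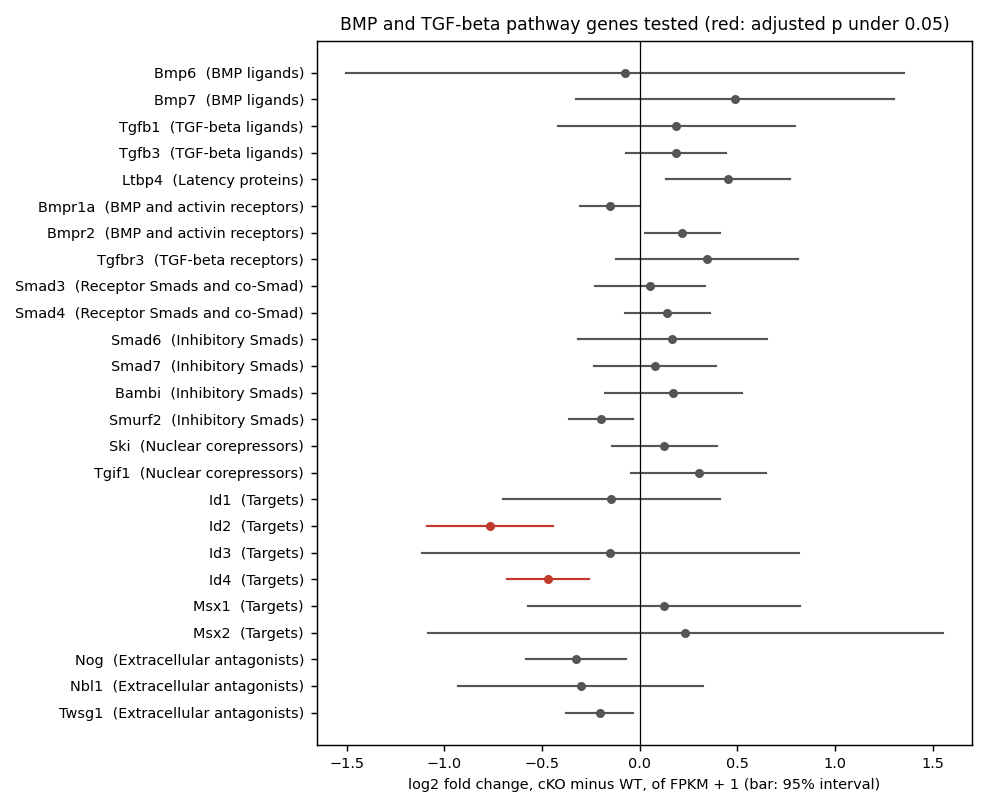
Log2 fold change (cKO minus WT, of FPKM + 1) of the 25 pathway genes tested, with 95% intervals, ordered by role from ligands at the top to antagonists at the bottom. Id2 at -0.77 and Id4 at -0.47 are the 2 genes past the test, and the intervals of Bmp6 and Msx2 are the widest.

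Id4 and Id2 are the genes on which the result turns. Sequence before their RefSeq transcript starts is shown because it was planned for Id, Msx and inhibitory Smad genes that passed, whatever motif they hold. Both windows hold the letters GGCGCC, a GC-rich motif known from BMP-responsive promoters. Windows of the Id and Msx genes that did not pass are not shown, and no comparison with them was made. The sequences are from RefSeq on GRCm38.p6, 5′ to 3′ on the strand of the gene, cut to the part before that start that lies in no annotated exon, with the motif in capitals. The Id2 stretch lies inside the annotated gene, in an intron of a longer GENCODE transcript (ENSMUST00000221761), and borders one of its exons. The Id4 stretch lies in introns of A330033J07Rik and Gm49291, which are annotated on the opposite strand.
Id2 (chr12:25096254-25096342, minus strand): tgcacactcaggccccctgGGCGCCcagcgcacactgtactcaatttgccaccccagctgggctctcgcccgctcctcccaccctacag
Id4 (chr13:48260866-48261115, plus strand): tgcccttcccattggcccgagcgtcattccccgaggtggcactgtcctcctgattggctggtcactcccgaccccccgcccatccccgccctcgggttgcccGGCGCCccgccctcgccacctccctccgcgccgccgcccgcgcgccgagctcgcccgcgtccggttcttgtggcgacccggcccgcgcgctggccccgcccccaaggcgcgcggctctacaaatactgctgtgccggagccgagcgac
The motif begins 231 bases before the RefSeq start of Id2 and 148 bases before that of Id4. It reads the same on both strands, and it is found in 9.59% of all 32817 promoter windows of 250 bases and in 18.3% of the 7360 windows of tested genes. The palindromic Smad motif GTCTAGAC was searched in the same windows and is in neither, as in all but 0.168% of windows. A match describes the letters and is not evidence of binding.

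Id4, the most abundant of the pathway genes here, was lower in every cKO library. Id4 (ENSMUST00000021810; chromosome 13, 48261228 to 48266026, GRCm38) had 435, 420 and 436 FPKM in HM-5, HM-13 and HM-16, against 632, 519 and 644 FPKM in HC-1, HC-8 and HC-10. The groups did not overlap, and the cKO values were closer together than those of WT. The mean was 430 ± 9.11 FPKM in cKO and 598 ± 68.7 FPKM in WT (SD, n = 3 each), which is 71.9% of WT (difference on the log2 scale -0.47, SE 0.09; limma adjusted p = 0.0146). Between 6003 and 11792 reads per library lie behind these values. In bulk tissue, fewer cells that express a gene and less RNA per cell cannot be told apart. Exons of Id4 overlap those of 2 genes on the other strand, A330033J07Rik and Gm49291, and the sources used here do not say whether counting used strand, so reads of these genes cannot be told apart. The call was lost without HM-5 (adjusted p = 0.0617, with 5.59% of all genes called) or HM-16 (0.0579, with 5.96% called). It was also lost without HC-10 and HM-13 together (0.0729), and with library totals as scaling (0.0974). The log2 fold change was between -0.57 and -0.39 in all of these fits. Library totals include the reads of Rn45s, which were 29.7% of those of HM-13.

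Id2 showed the larger fall. Id2 (row of ENSMUST00000020974; gene on chromosome 12, 25093799 to 25097140) had 45.1, 56.4 and 38.5 FPKM in HM-5, HM-13 and HM-16, against 80.6, 70.9 and 86.7 FPKM in HC-1, HC-8 and HC-10. Every cKO value was below every WT value, with HM-13 the highest of the cKO libraries and HC-10 the highest of WT. The means were 46.7 ± 9.03 FPKM in cKO and 79.4 ± 7.94 FPKM in WT (58.8% of WT), over 517 to 1175 reads per library. On the log2 scale the difference was -0.77 with an SE of 0.14, and it passed (adjusted p = 0.0117). The call was lost without HM-5, by a small margin (adjusted p = 0.0536). The summed level of 6 markers of cortical neurons was highest in the same library of each group as Id2, HM-13 in cKO and HC-10 in WT, at 767, 1140 and 797 FPKM in HM-5, HM-13 and HM-16, against 1036, 1112 and 1369 FPKM in HC-1, HC-8 and HC-10. For the neuron markers the groups overlapped and 0 of 6 passed the test. All 6 had log2 fold changes below 0, from -0.72 for Neurod6 to -0.26 for Neurod1, and Stmn2 had the lowest adjusted p (0.0617). The part of neuron content in the fall of Id2 was not tested.

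For Id3 and Id1, unlike Id2 and Id4, HC-10 was the lowest WT library. Id3 had 85.6, 76.4 and 112 FPKM in HM-5, HM-13 and HM-16, against 139, 153 and 46.9 FPKM in HC-1, HC-8 and HC-10. All 3 cKO libraries lay below HC-1 and HC-8 and above HC-10, so the groups overlapped (log2 fold change -0.15, 95% interval -1.11 to 0.82, adjusted p = 0.831). Id1 had 29.2, 36.4 and 44.2 FPKM in cKO, against 49.0, 47.9 and 27.1 FPKM in WT, and HC-10 was again the lowest of all 6 libraries. The adjusted p of Id1 was 0.708. Without HC-10, Id3 fell with a log2 fold change of -0.69 (adjusted p = 0.0408), and Id1 had -0.42 (adjusted p = 0.148). Of the 8 hem and choroid markers, 6 moved the same way: Wnt3a, Wnt2b, Rspo3, Lmx1a, Ttr and Kcne2 were each lower in all 3 cKO libraries than in HC-1 and HC-8, and lowest in HC-10. Of the other markers with a row, Wnt8b was below both in 1 of the 3 cKO libraries and lowest in HC-10, and Otx2 in 2 of the 3, with its lowest value in HM-5. The part of hem content in the values of Id1 and Id3 was not tested.

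Summed over the 4 Id genes, the level was 595, 589 and 631 FPKM in HM-5, HM-13 and HM-16, against 900, 792 and 805 FPKM in HC-1, HC-8 and HC-10, so every cKO sum was below every WT sum. Id4 made up 69.1% to 73.1% of that sum in cKO and 65.6% to 80.0% in WT, so the sum mostly follows Id4. Id2 and Id4 together had 475 to 480 FPKM in the 3 cKO libraries, against 590 to 731 FPKM in WT. Each of Id2 and Id4 already separated the groups, so the separation of this sum was fixed in advance. Id1 and Id3 together had 113 to 156 FPKM in cKO, against 188 and 201 FPKM in HC-1 and HC-8 and 74.0 FPKM in HC-10.

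**Figure D2:**
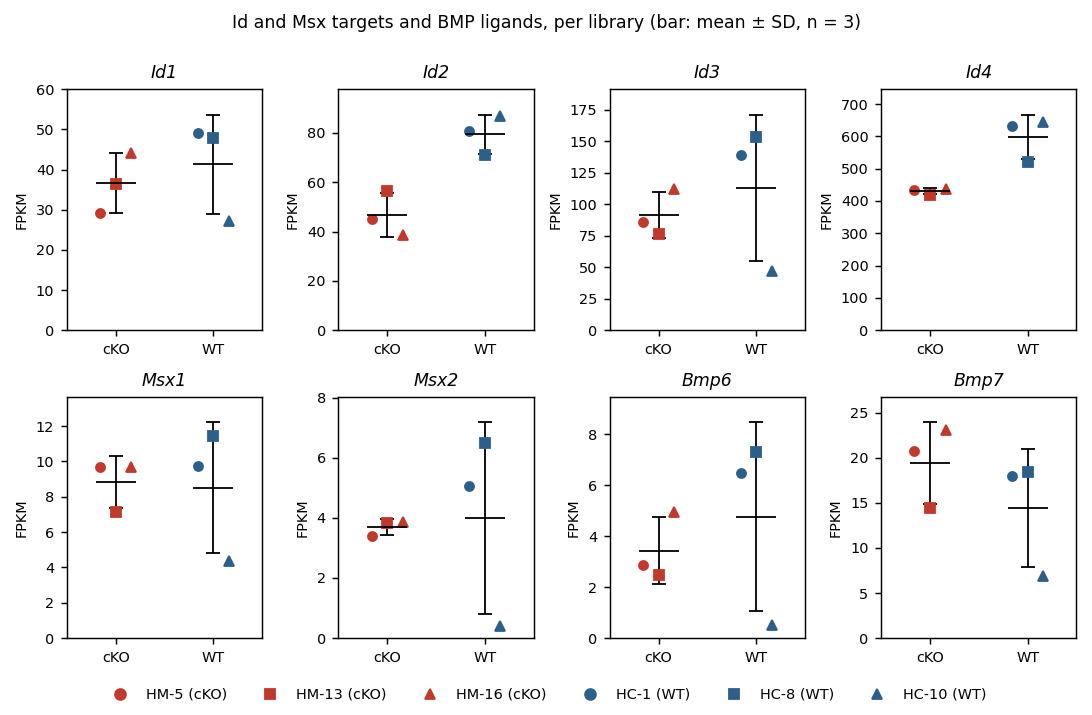
FPKM in each library of the 4 Id genes, Msx1, Msx2, Bmp6 and Bmp7, cKO left and WT right, with mean ± SD (n = 3). Id2 and Id4 separate the groups, whereas in the other 6 panels HC-10 (blue triangle) is the lowest point.

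The homeobox genes Msx1 and Msx2, BMP targets of the dorsal midline, shared the low value in HC-10. Msx2 had 3.39, 3.81 and 3.86 FPKM in HM-5, HM-13 and HM-16, against 5.06, 6.50 and 0.391 FPKM in HC-1, HC-8 and HC-10. The cKO values were close together and lay between HC-10 and the other WT libraries. Msx1 had 9.66, 7.15 and 9.67 FPKM in cKO, against 9.71, 11.5 and 4.37 FPKM in WT. Neither passed with all 6 libraries (adjusted p = 0.803 for both), and the sign of both log2 fold changes turned without HC-10, to -0.52 for Msx2 (adjusted p = 0.0666) and -0.24 for Msx1 (adjusted p = 0.358).

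**Figure D3:**
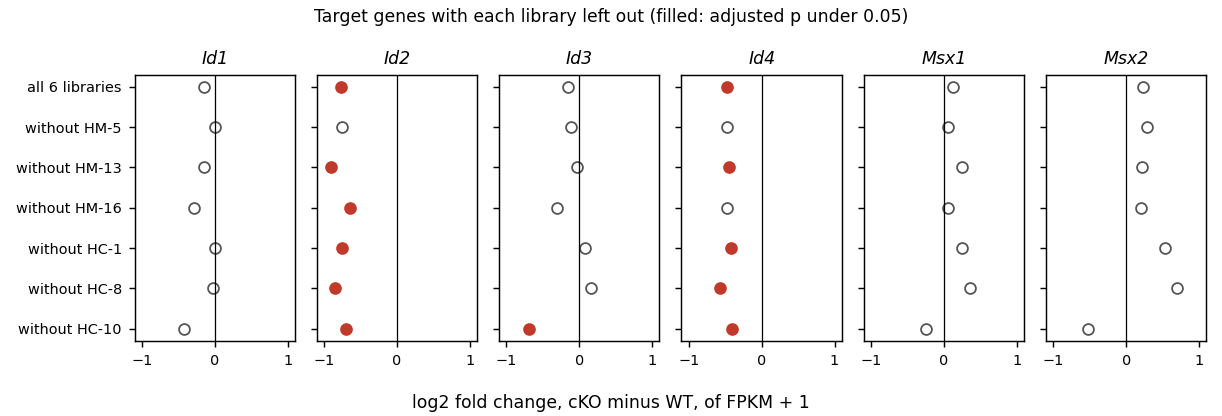
Log2 fold change (cKO minus WT, of FPKM + 1) of the Id and Msx genes with all 6 libraries and with each left out in turn, filled where the adjusted p is under 0.05. Id2 and Id4 stay below 0 in every row, while Id3 ranges from -0.69 without HC-10 to 0.16 without HC-8, and Msx2 from -0.52 to 0.69.

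The BMP ligands measured, Bmp6 and Bmp7, varied more within WT than between the groups. Bmp6 had 2.86, 2.48 and 4.94 FPKM in HM-5, HM-13 and HM-16, against 6.47, 7.28 and 0.501 FPKM in HC-1, HC-8 and HC-10, from 16 to 278 reads per library. Bmp7 had 20.7, 14.4 and 23.2 FPKM in cKO, against 17.95, 18.5 and 6.91 FPKM in WT. HC-10 was lowest for both, at 7.29% of the mean of HC-1 and HC-8 for Bmp6 and 37.9% for Bmp7. Neither gene passed (adjusted p = 0.947 and 0.364), and the 95% interval of the log2 fold change of Bmp6 ran from -1.50 to 1.36. Bmp6 was lower in all 3 cKO libraries than in HC-1 and HC-8 (log2 fold change without HC-10 -0.87, adjusted p = 0.0639), whereas Bmp7 was lower in 1 of the 3 (log2 fold change without HC-10 0.06, adjusted p = 0.857). Without HC-10, the log2 fold change was 0.06 for Tgfb1, 0.20 for Tgfbr3, -0.03 for Smad6, -0.02 for Smad7, 0.02 for Bambi, 0.18 for Tgif1 and -0.57 for Nbl1, and none of these passed limma (adjusted p from 0.141 for Nbl1 to 0.940 for Bambi). Across all 25 genes, 5 (Bmp6, Bmp7, Id3, Msx1 and Msx2) were in HC-10 at under 50% of both other WT libraries, as were 1.75% of all tested genes. The other 5 libraries had 0 pathway genes under 50% of both others of their group. Over all tested genes that share was 0.492% in HM-5, 0.417% in HM-13, 0.641% in HM-16, 0.695% in HC-1 and 0.353% in HC-8. This threshold was chosen after the values were seen.

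**Figure D4:**
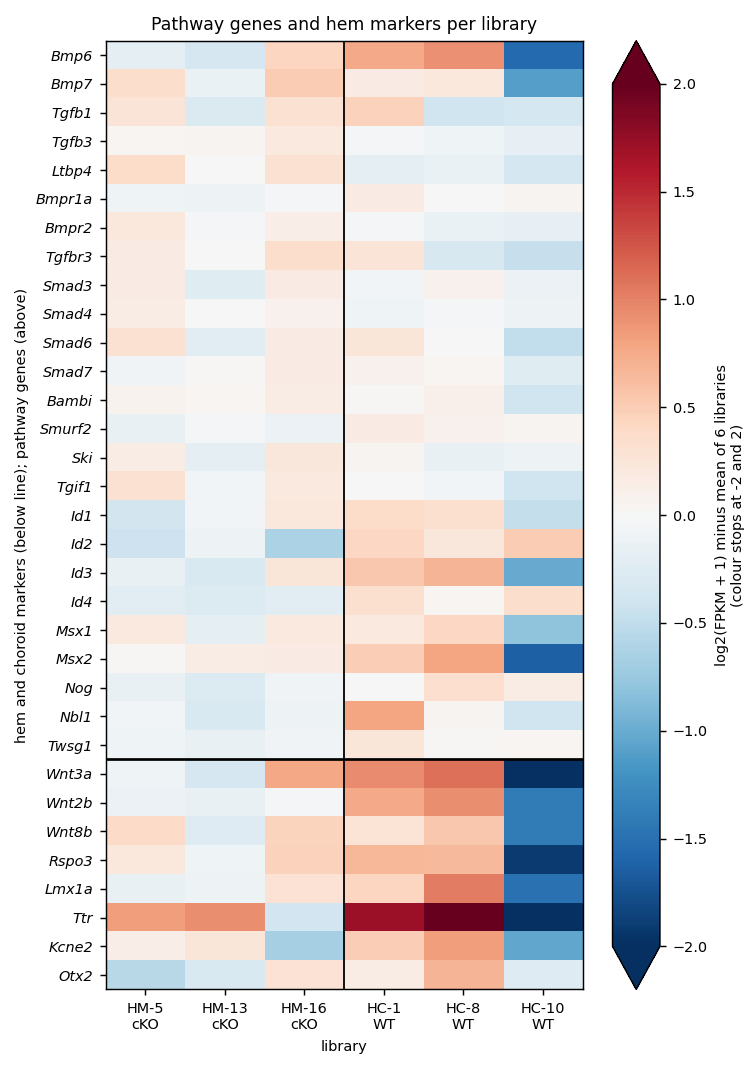
Log2(FPKM + 1) minus the mean of the 6 libraries for the 25 pathway genes tested (above the thick line) and 8 hem and choroid plexus markers (below it), cKO libraries left of the vertical line and WT right. The HC-10 column is blue for Bmp6, Bmp7, Id3, Msx1 and Msx2 and for the 8 markers, but not for Id2 and Id4.

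The TGF-beta ligands Tgfb1 and Tgfb3 did not pass. Tgfb3 had 2.48, 2.54 and 2.89 FPKM in HM-5, HM-13 and HM-16, against 2.36, 2.20 and 2.02 FPKM in HC-1, HC-8 and HC-10, higher in each cKO library but by little (log2 fold change 0.19, adjusted p = 0.277). Tgfb1 had 9.39, 6.14 and 9.77 FPKM in cKO, against 11.0, 5.63 and 5.78 FPKM in WT (adjusted p = 0.648), with HC-1 the highest of all. Meningeal markers were also highest in HC-1: over the 8 of 10 with a row, the summed level was 260 to 421 FPKM in cKO, against 477, 218 and 253 FPKM in HC-1, HC-8 and HC-10. Microglia are known to make TGF-beta1. The summed level of 6 of their 9 markers was 69.1 to 81.0 FPKM in cKO and 51.1 to 62.6 FPKM in WT. Of the 6, 2 were called higher (Tyrobp and C1qb) and the rest did not pass. Over all tested genes, 9.62% were called higher. Markers of endothelium and pericytes, 5 of 10 with a row, summed to 102 to 130 FPKM in cKO. In WT they summed to 133, 73.5 and 83.0 FPKM in HC-1, HC-8 and HC-10, highest in HC-1 and lowest in HC-8, as was Tgfb1. The part of any of these cell types in Tgfb1 was not tested.

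TGF-beta is secreted bound to latent TGF-beta binding proteins, and Ltbp4 encodes one of them. Ltbp4 had 2.42, 1.66 and 2.25 FPKM in HM-5, HM-13 and HM-16, against 1.31, 1.42 and 1.06 FPKM in HC-1, HC-8 and HC-10. The groups did not overlap, and the cKO mean was 167% of WT, over 60 to 145 reads per library. Its log2 fold change of 0.45 (SE 0.14) missed the threshold over all genes (adjusted p = 0.0565). It passed with limma's voom on recovered reads (adjusted p = 0.0280, with 21.7% of all genes called), without HM-13 (0.0312, with 19.4% called) and when genes had to reach 1 FPKM in all 6 libraries (0.0447). The authors' deposited table gives Ltbp4 an FDR of 0.0131 and a log2 fold change of 0.62. There, 3 of the 29 pathway genes with an FDR have one under 0.05, which are Id2, Id4 and Ltbp4, against 19.3% of all rows with an FDR. Ltbp1 and Ltbp3 were under 1 FPKM in all 6 libraries.

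None of the 3 receptor genes tested passed limma with all 6 libraries, and 1, Bmpr2, had an unadjusted p under 0.05. Bmpr2, the type II BMP receptor, had 36.5, 30.6 and 34.5 FPKM in HM-5, HM-13 and HM-16, against 30.5, 28.6 and 27.7 FPKM in HC-1, HC-8 and HC-10. HM-13 exceeded HC-1 only narrowly, and the log2 fold change of 0.22 did not pass (adjusted p = 0.108), though it did without HM-13 (0.29, adjusted p = 0.0416). Bmpr1a, a type I BMP receptor, had 45.9, 45.7 and 47.6 FPKM in cKO, against 55.2, 48.8 and 51.0 FPKM in WT. Its groups did not overlap either, in the opposite direction (log2 fold change -0.15, 95% interval -0.30 to 0.00, adjusted p = 0.155). Tgfbr3, the coreceptor betaglycan, had 2.47, 2.11 and 2.95 FPKM in cKO, against 2.70, 1.49 and 1.26 FPKM in WT (adjusted p = 0.269). Tgfbr1, the type I TGF-beta receptor, was at 0.222 to 0.435 FPKM across the libraries and was not tested.

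Smad3, which carries the TGF-beta and activin signal, had 46.9, 35.1 and 47.3 FPKM in HM-5, HM-13 and HM-16, against 40.5, 44.5 and 38.7 FPKM in HC-1, HC-8 and HC-10. HM-13 was the lowest and the groups overlapped (adjusted p = 0.794). Smad4, the shared partner of receptor Smads, had 8.71, 7.71 and 8.34 FPKM in cKO, against 7.26, 7.70 and 7.16 FPKM in WT, a mean of 112% of WT (adjusted p = 0.318). The rows of Smad1, Smad5 and Smad2 averaged under 1 FPKM in both groups. Fitted with no filter on low values, the 7 genes that were not tested (Smad1, Smad5, Smad2, Tgfbr1, Ltbp1, Ltbp3 and Skil) had log2 fold changes from -0.11 to 0.12 and adjusted p-values from 0.493 to 0.840.

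Low levels of such genes need caution, since a gene can have several rows in the table, each listed under a transcript ID. Of the 25 genes tested, 6 have several RefSeq mRNAs, against 5 of the 7 with a row below the test level and 10 of the 11 without a row (Bmp4, Bmpr1b, Acvr1, Acvr2a, Acvr2b, Tgfb2, Tgfbr2, Chrd, Fst, Smurf1 and Tgif2, which are not analysed here). The sources used here do not state how reads shared by several transcripts were assigned. The part of that assignment in the low values was not tested, and the order of levels between genes needs the same caution.

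Among the intracellular inhibitors, Smurf2, a ubiquitin ligase that marks Smads and receptors for degradation, had 20.6, 22.3 and 21.2 FPKM in HM-5, HM-13 and HM-16, against 25.7, 24.3 and 24.0 FPKM in HC-1, HC-8 and HC-10. The groups did not overlap and the cKO mean was 86.7% of WT (log2 fold change -0.20, adjusted p = 0.0877); it passed with voom (adjusted p = 0.0490) and after quantile normalization (0.0479). Smad6, an inhibitory Smad of the BMP branch, had 10.5, 7.07 and 9.42 FPKM in cKO, against 10.0, 8.27 and 5.65 FPKM in WT (adjusted p = 0.608). The inhibitory Smad7 ranged from 2.01 to 2.54 FPKM in cKO and from 1.67 to 2.36 FPKM in WT. Bambi, a receptor decoy, ranged from 3.82 to 4.21 FPKM in cKO and from 2.57 to 4.05 FPKM in WT. HC-10 was the lowest library for Smad6, Smad7 and Bambi, and also for genes of other roles, among them Tgfb3, Bmpr2, Smad4 and Tgif1. The adjusted p-values of Smad6, Smad7 and Bambi were 0.608, 0.714 and 0.460.

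Ski and Tgif1, nuclear corepressors that bind Smads and are known to work with histone deacetylases, did not pass. Ski had 50.6, 40.1 and 54.0 FPKM in HM-5, HM-13 and HM-16, against 47.5, 41.4 and 42.6 FPKM in HC-1, HC-8 and HC-10 (adjusted p = 0.482). Tgif1 had 7.20, 5.40 and 6.56 FPKM in cKO, against 5.60, 5.38 and 4.02 FPKM in WT, 128% of WT on average (adjusted p = 0.197). For both genes HM-13 was the lowest cKO library, below every WT library for Ski and within the WT range for Tgif1.

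The 3 extracellular antagonists tested had log2 fold changes below 0, but none passed limma with all 6 libraries, and 2 had an unadjusted p under 0.05. The log2 fold change of Nbl1 was 0.018 without HC-1. Of the 7 antagonists tested on the wider list described last, 4 were above 0 and 3 below. Noggin, encoded by Nog, binds BMPs and keeps them from their receptors. Nog had 11.4, 10.3 and 12.1 FPKM in HM-5, HM-13 and HM-16, against 12.9, 16.3 and 14.2 FPKM in HC-1, HC-8 and HC-10. The groups did not overlap (78.2% of WT; difference of -0.33 on the log2 scale, adjusted p = 0.0774), and Nog passed after quantile normalization (adjusted p = 0.0381) but not with voom. Twsg1, a BMP-binding protein that acts with chordin, had 45.5, 43.8 and 46.3 FPKM in cKO, against 57.4, 49.5 and 50.0 FPKM in WT (log2 fold change -0.20, adjusted p = 0.0945), again with no overlap. Nbl1, an antagonist of the DAN family, had 10.3, 8.50 and 10.0 FPKM in cKO, against 19.3, 11.2 and 7.94 FPKM in WT. Its WT values spanned the cKO range, with HC-1, which also had the highest meningeal markers, far above the rest (adjusted p = 0.469).

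A wider list of 108 pathway genes that are not among the 43 was read from the same fit. Of these, 63 have a row, 48 were tested, 4 rose and 2 fell, or 12.5% against the 18% of all genes, and 12 did not overlap (25.0%, against 39.1%). Tab1 fell: this activator of the kinase TAK1, which carries the branch that bypasses Smads, had 25.1, 26.0 and 26.6 FPKM in HM-5, HM-13 and HM-16, against 36.2, 34.8 and 36.4 FPKM in HC-1, HC-8 and HC-10. The cKO mean was 72.3% of WT (difference of -0.45 on the log2 scale, SE 0.06, adjusted p = 0.00475), and it passed whichever single library was omitted, but not with library totals as scaling (adjusted p = 0.202). Zfyve16, an endosomal protein that binds Smads and receptors, had 11.7, 13.5 and 12.5 FPKM in cKO, against 14.6, 16.9 and 16.5 FPKM in WT (adjusted p = 0.0474). The call was lost on omitting any 1 of HM-5, HM-16, HC-8 or HC-10, and with library totals (0.428). Zfyve16 was called in 7 of 15 alternatives.

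Of the 4 that rose, Msx3 and Tmeff2 rose most. Msx3, the third Msx homeobox gene, had 4.29, 3.60 and 5.51 FPKM in HM-5, HM-13 and HM-16, against 1.71, 1.72 and 1.64 FPKM in HC-1, HC-8 and HC-10. The WT values, HC-10 included, were almost equal, unlike those of Msx1 and Msx2, and the cKO mean was 2.65-fold that of WT (difference of 1.01 on the log2 scale, SE 0.14, adjusted p = 0.00533), over 40 to 133 reads per library. Tmeff2, a transmembrane protein with follistatin domains, had 4.56, 2.99 and 4.35 FPKM in cKO, against 0.932, 0.752 and 1.63 FPKM in WT (3.59-fold, log2 fold change 1.24, adjusted p = 0.00735). Msx3 and Tmeff2 passed in every alternative that tested them. Klf10, an immediate target of TGF-beta, had 15.9, 12.4 and 17.6 FPKM in cKO, against 11.1, 9.30 and 9.12 FPKM in WT (1.56-fold, adjusted p = 0.0283). It passed on omitting HM-13 or HC-1 but not any other single library, and not with library totals (0.309). Nedd4l, a ubiquitin ligase of activated Smads, had 1.52, 1.62 and 1.46 FPKM in cKO, against 0.860, 0.875 and 0.747 FPKM in WT (adjusted p = 0.0204). The call of Nedd4l was lost without HC-10 (adjusted p = 0.0667) and with library totals (0.238). Without any 1 of the cKO libraries it was not tested. Of the 15 alternatives, 10 tested Nedd4l and 8 called it. Nedd4l reached the test only through its cKO values, and Tmeff2, with 1 WT library at 1 FPKM or more, also needed them. Nedd4l therefore had to differ between the groups, while for Tmeff2 the filter tilted toward a rise without forcing it. The count of genes that rose is not supported by these genes. On the opposite strand, exons of other annotated genes overlap those of Bmp6 (Txndc5), Bmpr1a, Tgfb3, Nedd4l and Stub1 (Jmjd8).

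**Figure D5:**
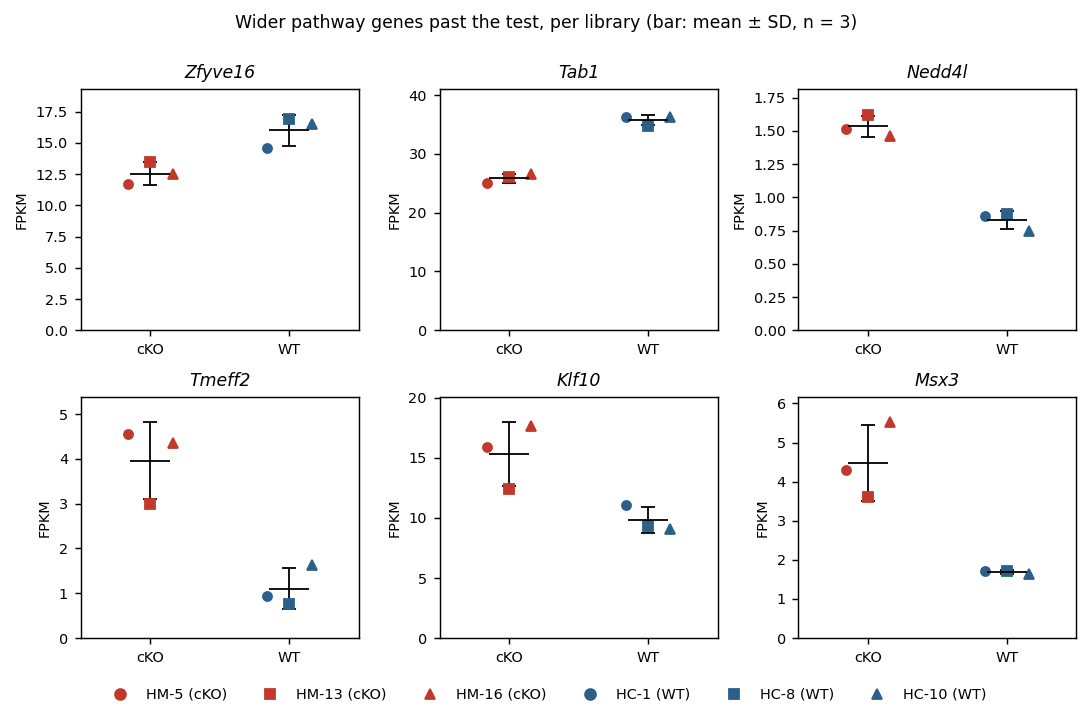
FPKM in each library of the 6 wider pathway genes past the test, cKO left and WT right, with mean ± SD (n = 3). The groups are separate in every panel, and Msx3 is at 1.64 to 1.72 FPKM in all 3 WT libraries.

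The most abundant of the wider genes that did not pass were Strap, Fstl1, Stub1 and Tab2. Strap, a WD-repeat protein that binds TGF-beta receptors, averaged 192 ± 8.45 FPKM in cKO and 223 ± 9.83 FPKM in WT (SD, n = 3 each; limma adjusted p = 0.0540). Tab2, the adaptor that works beside Tab1, averaged 55.7 ± 2.34 FPKM in cKO and 62.8 ± 0.232 FPKM in WT (n = 3 each; limma adjusted p = 0.0774). Fstl1 and Stub1 had adjusted p-values of 0.774 and 0.823. A BMP ligand outside the 43, Bmp2, was chosen after its values were seen. Bmp2 had 2.11, 1.69 and 2.98 FPKM in HM-5, HM-13 and HM-16, against 1.25, 1.25 and 0.421 FPKM in HC-1, HC-8 and HC-10. HC-10 was again the lowest, but here every cKO value was above every WT value (log2 fold change 0.74, adjusted p = 0.0582). Without HC-10 it was 0.52 (adjusted p = 0.128). Bmp2 passed with voom (adjusted p = 0.0459), with library totals (0.0193) and without HM-13 (0.0497). In the authors' deposited comparison, Bmp2 has an FDR of 0.00526 and a log2 fold change of 0.84. There, 19.3% of all rows with an FDR have one under 0.05.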

How the data were processed

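RNA was measured in 3 cKO and 3 WT libraries, made with a TruSeq kit per the labels' protocols. Per the submitters' processing notes, base calling used bcl2fastq 1.8.4, and the other tools named are DESeq2 1.22.1, R 3.4.1, featureCounts 1.6.1 and STAR 2.5.4b, on mm10. The table of 14379 rows holds FPKM per library, per the file headers. The authors' deposited columns of mean normalized count (a signal used only to choose rows and recover reads), log2 fold change, p-value and FDR describe their own comparison; the FDR is missing for 4509 rows. Columns named HM were read as cKO and HC as WT from their letters, and which replicate each is could not be told.

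Each symbol was taken as its row of highest mean normalized count; 1950 of 12041 symbols have several rows. FPKM times the ratio of mean normalized count to mean FPKM, times a fitted size factor, gave whole reads (within 0.001) for 100% of values. The design was written for counts or normalized values, and the branch for normalized values was used. The fit was limma 3.58.1 in R 4.3.3 on log2(FPKM + 1) with an intensity trend, group the only term, over 9359 genes; a positive log2 fold change is higher in cKO, and the pseudocount of 1 understates changes of low genes. It was tested on simulated data. Voom, in limma, used TMM factors computed from their published formula.

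Members and lists were chosen with earlier results of these data known. Genes shown by library are those called, those without overlap at an unadjusted p under 0.05, and the 2 most abundant of each role. From the wider list they are those called and the 4 most abundant others. Id1, Msx1, Msx2, Nbl1 and Bmp2 were added after their values were seen. Alternatives were pseudocounts of 0.1 and 5, other filters, scalings and row sums, voom and leaving out libraries. Positions are from GENCODE M21 (GRCm38, the same assembly as mm10).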

Additional observations from a re-analysis of the deposited data

How the results depend on the processing

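The count of pathway genes changed, 2 with all 6 libraries, was 4 with voom, 4 after quantile normalization and 1 with library totals, and ran from 0 (without HM-5) to 4 (without HM-13) with 1 library left out. Genes higher numbered 0 with all libraries, 1 with voom, 1 with a filter of 1 FPKM in all 6 libraries, and 0 to 2 with 1 library left out. Genes lower numbered 2, with 4 after quantile normalization, 1 with library totals and 0 to 3 with 1 library left out. All genes changed numbered 1685, against 497 with library totals, 1115 without HC-10 and HM-13 together, a choice made after seeing the data, and 511 (without HM-5) to 1773 (without HM-13) with 1 library left out; it was 545 without HM-16, 888 without HC-10 and 1103 without HC-1. The wider list had 6 changed genes, 9 with voom, and 3 to 7 with 1 library left out (3 without HM-5 or HM-16).

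Id2 stayed below 0 in all 15 alternatives and was called in 14, Id4 in 11. With 1 library left out, genes that did not pass changed sign within these ranges of log2 fold change: Bmp6 -0.87 to 0.36, Id3 -0.69 to 0.16, Id1 -0.42 to 0.0047, Nbl1 -0.57 to 0.018, Smad3 -0.020 to 0.19, Smad6 -0.033 to 0.33, Smad7 -0.023 to 0.14, Msx1 -0.24 to 0.36 and Msx2 -0.52 to 0.69. Bmp6 was at 0.13 with a pseudocount of 0.1 and 0.13 with voom, and Smad3 at -0.041 with library totals. Without HC-10 and HM-13, Msx1 was at -0.12, Msx2 at -0.54 and Smad7 at -0.016, and Id3 passed at -0.57 (adjusted p = 0.0434). Library totals moved the median of all genes to -0.09. These totals include the reads of Rn45s, 29.7% of those of HM-13, so this scaling lowers the other genes of that library. The part of Rn45s in the calls lost with library totals was not tested. No paired analysis was possible because the columns carry no replicate number of the labels. Where no cause is given, the cause was not tested. At 9 to 16 reads in HC-10, Msx2 and Bmp6 are near the depth limit of that library.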

Other observations

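Of the 32 pathway genes with a row, 4 have a second one, used only in the alternative that sums FPKM over rows. The second row of Tgif1 (ENSMUST00000172229) had 1.06, 0.694 and 1.08 FPKM in HM-5, HM-13 and HM-16, against 0.850, 0.75 and 0.336 FPKM in HC-1, HC-8 and HC-10, so its HC-10 value was the lowest, as in the first row. The second rows of the other 3 genes carry the same transcript ID as the first row, with other values. The second row of Twsg1 averaged 0.303 FPKM in cKO and 0.665 FPKM in WT, and those of Smad5 and Ltbp3 were under 0.3 FPKM in all 6 libraries.

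Markers of the ventral telencephalon also differed between libraries of one group. Over the 3 of 7 such markers with a row, the summed level was 1.46, 14.8 and 18.2 FPKM in HM-5, HM-13 and HM-16, against 4.52, 45.5 and 35.1 FPKM in HC-1, HC-8 and HC-10. HM-5 and HC-1 were low, an order unlike that of the hem markers, in which HC-10 was low.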
